A study of Mus musculus with 2 samples.

Results

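The secreted and membrane-bound metalloproteinases that cleave the extracellular matrix, and their tissue inhibitors, were examined in mouse embryonic fibroblasts. Genes were taken by symbol from the non-control probes of the arrays: the matrix metalloproteinases (Mmp), the ADAMTS proteases, the ADAMTS-like proteins and the tissue inhibitors of metalloproteinases (Timp). They comprised 48 genes on 81 of the 41174 probes, namely 21 Mmp genes, 18 Adamts genes, 5 Adamtsl genes and 4 Timp genes. Of these, 47 had a usable probe, among 27579 gene names with one. Total RNA came from untreated primary embryonic fibroblasts (MEFs) of C57BL/6J mice, either LATS2-/- (KO) or LATS2+/+ (WT), and both RNAs were hybridised together to Agilent whole mouse genome arrays. The titles and protocols name the locus LATS2, whereas the genotype field writes LAT2. Of the 2 arrays, the first had KO RNA in the dye Cy5 with WT RNA in Cy3, and its partner had the opposite dyes. Nothing says whether the arrays hold separate cultures, embryos or RNA preparations, so they were counted as 1 replicate. All values therefore compare a pair of RNAs, the genotypes have no replicate check, and no p-value is given for them.

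Matrix metalloproteinases are zinc-dependent enzymes made as inactive precursors and switched on by removal of a propeptide. Collagenases cut fibrillar collagen, gelatinases its denatured form and basement membrane collagen, and stromelysins a wide range of matrix proteins. ADAMTS proteases carry thrombospondin repeats and act on proteoglycans, procollagens and microfibrils, while ADAMTS-like proteins share the repeats without the catalytic domain. TIMPs block the active site. Fibroblasts are a main source of these enzymes in connective tissue, and several of the genes are induced by growth factors through AP-1, the Fos-Jun family of transcription factors.

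The exchange of dyes returned the same picture for these genes. Throughout, a ratio is the log2 of the KO over the WT signal, and the SD given with a mean is that between the 2 arrays. This SD was 0.136 over single probes above background and 0.141 over the 31 protease and inhibitor genes above background. Above background means that the scanning software flagged a probe as well above background on both arrays in at least 1 of the RNAs. The number of arrays limits the precision, and the offset added before taking logs pulls the ratios of dim probes towards 0. Lats2, the targeted gene, was higher in the RNA labelled KO at 3 of its 4 probes (0.56, 0.56 and 0.63) and lower at the remaining one (-0.35). Where the deleted part lies against the probes is not given in the sources used here. The RNAs are therefore called by their labels, and every direction below rests on the labels.

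Of the 31 genes above background, 5 were called higher in the RNA labelled KO, that is at least 2-fold in the same direction on each array: Adamts1, Adamts2, Adamts5, Adamts16 and Mmp2. Another 3 were called lower: Mmp3, Adamts8 and Adamtsl3. The called shares were 16.1% and 9.68%, beside 2.95% (469 of 15877) and 2.61% (414 of 15877) over all gene names above background. The median ratio of the 31 genes was 0.032, beside -0.0037 over all 15877, so the genes did not move one way. Ratios under 0.5 in size were measured for 17 of the 31 (54.8%) and for 77.4% of all gene names. The enzymes were spread over the whole range, from Mmp3 at rank 39 from the lowest of the 15877 to Adamts1 at rank 72 from the highest. Both arrays gave the same sign for 28 of the 31 genes. The exceptions, Timp1, Adamts7 and Adamtsl1, all had means under 0.1 in size. Between the arrays 30 of the 31 ratios lay within 0.5 of each other, and Adamts10 was the exception at 0.55.

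**Figure D1:**
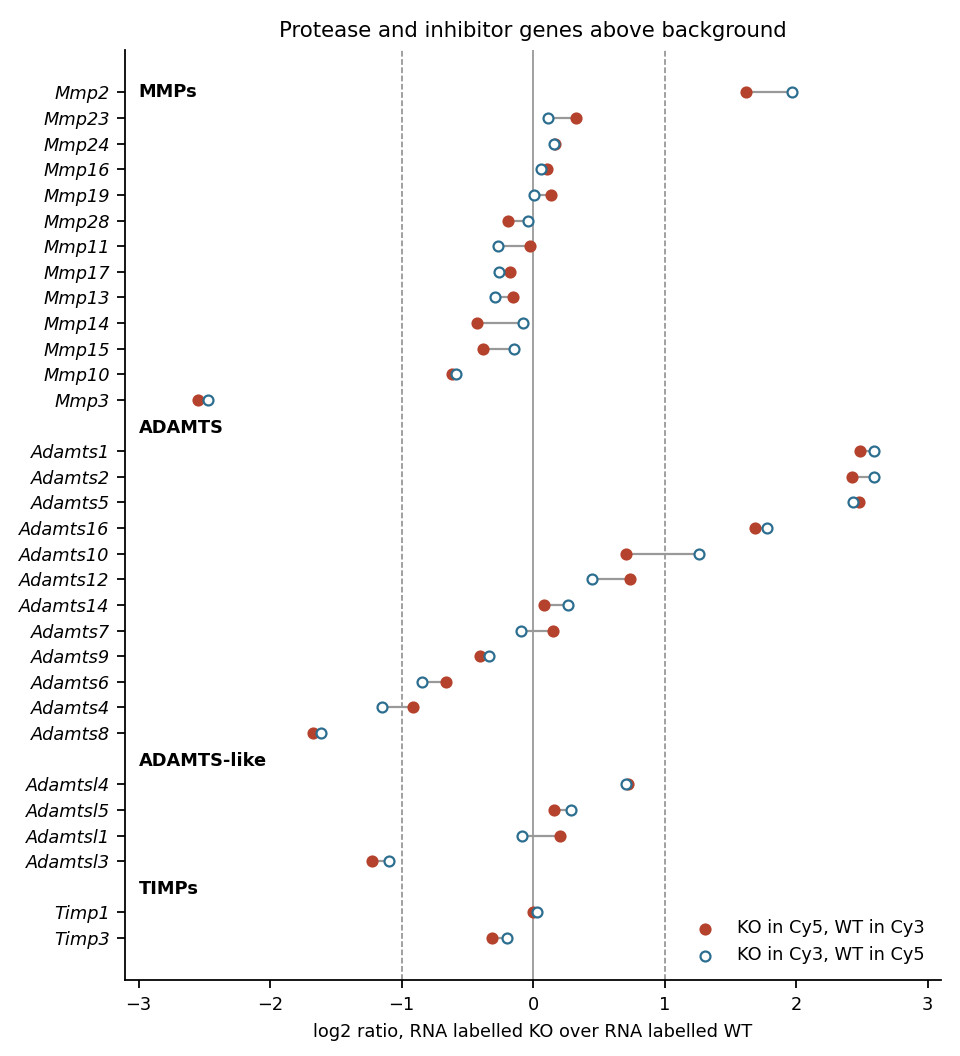
Log2 ratio of the RNA labelled KO over the RNA labelled WT (x axis) for each of the 31 protease and inhibitor genes above background (y axis, by family). Filled points are the array with KO in Cy5, open points the array with KO in Cy3, a grey line joins both, and dashed lines mark 2-fold. Adamts1, Adamts2, Adamts5, Adamts16 and Mmp2 lie beyond the right line on both arrays, and Mmp3, Adamts8 and Adamtsl3 beyond the left line.

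Mmp3, a stromelysin with broad substrates that also activates other metalloproteinases, was the lowest of all 31 genes. Its level (normalised log2 intensity) was 7.02 in the RNA labelled KO and 9.57 in the RNA labelled WT on the array with KO in Cy5, and 7.35 and 9.82 on the other array. Both KO levels lay well below both WT levels. The ratios were -2.55 and -2.47, with a mean of -2.51 ± 0.06, so the KO level was 17.6% of the WT level. Mmp10, the closely related stromelysin next to Mmp1a, had 6.04 in KO against 6.65 in WT and 6.30 against 6.89. It went the same way without reaching 2-fold, at -0.60 ± 0.02 (-0.62 and -0.59). The furin-activated stromelysin Mmp11, on chromosome 10, had ratios of -0.02 and -0.27. In bulk RNA, fewer cells of a type and less RNA per cell cannot be told apart.

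Mmp3 and Mmp10 belong to a cluster of metalloproteinase genes on chromosome 9, of which 8 were on the arrays. In chromosome order they are Mmp13, Mmp12, Mmp3, Mmp1a, Mmp10, Mmp8, Mmp20 and Mmp7. On the NCBI36 (mm8) build of the files, the probes run from 7282762 (Mmp13) to 7697370 (Mmp7), and the Mmp3 probe lies at 7455751 to 7455810. The place of probes within exons was not analysed here. Mmp13, a collagenase, was above background in the RNA labelled WT alone and had ratios of -0.15 and -0.29. The remaining members, Mmp12 (macrophage elastase), Mmp1a and Mmp8 (collagenases), Mmp20 (an enamel protease) and Mmp7 (matrilysin), were not above background in either RNA on both arrays. Thus 3 of the 8 clustered genes were measurable. Their ratios ranged from -2.51 to -0.22, and Mmp13 was measurable only through the RNA labelled WT.

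The promoters of this cluster share a sequence feature. RefSeq promoters (GRCm38.p6, 250 bases before to 50 after the start site) were found for 33 of the 48 genes, in 36 windows. The AP-1 motif TGANTCA, which reads the same on both strands, occurs in 7 of these 36 windows, and all 7 belong to the chromosome 9 cluster. Of its 8 genes Mmp8 alone lacks it. Over all 32851 promoters 7.81% hold the motif. The 100 bases before the start are shown for the 3 measurable genes and for Mmp1a and Mmp7, which were not above background, because the site stands before genes of both kinds. Capitals mark the AP-1 motif and, downstream of it, the TATA box motif TATAAA, and the positions are on the plus strand of GRCm38.p6.
Mmp3, chr9:7445722-7445821: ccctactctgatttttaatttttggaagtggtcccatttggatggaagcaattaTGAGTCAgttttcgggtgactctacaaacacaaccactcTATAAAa
Mmp10, chr9:7502242-7502341: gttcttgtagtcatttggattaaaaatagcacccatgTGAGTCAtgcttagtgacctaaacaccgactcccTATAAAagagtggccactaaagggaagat
Mmp13, chr9:7272414-7272513: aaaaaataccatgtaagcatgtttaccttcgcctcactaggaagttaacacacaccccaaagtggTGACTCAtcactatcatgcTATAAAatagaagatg
Mmp1a, chr9:7464041-7464140: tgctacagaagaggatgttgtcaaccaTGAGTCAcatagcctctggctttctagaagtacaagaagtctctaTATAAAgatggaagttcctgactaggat
Mmp7, chr9:7691990-7692089: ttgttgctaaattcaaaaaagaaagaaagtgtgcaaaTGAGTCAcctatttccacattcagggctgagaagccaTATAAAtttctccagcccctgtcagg

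The site begins 46 bases before the start in Mmp3, 63 in Mmp10, 35 in Mmp13, 73 in Mmp1a and 63 in Mmp7. Mmp3, Mmp10, Mmp1a and Mmp7 hold the form TGAGTCA and Mmp13 the form TGACTCA. Of the sites not shown, Mmp12 holds TGAGTCA and Mmp20 holds TGAATCA, a form counted only because the motif leaves its middle base open. The TATA box motif TATAAA, on either strand, occurs in 11 of the 36 windows and in 13.6% of all promoters. The motif GGAATG, read by the TEAD factors that partner YAP, occurs on either strand in 2 of the 36 windows, those of Adamts13 and Timp1, and in 14.7% of all promoters. A match of letters is a description and not a bound site.

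**Figure D2:**
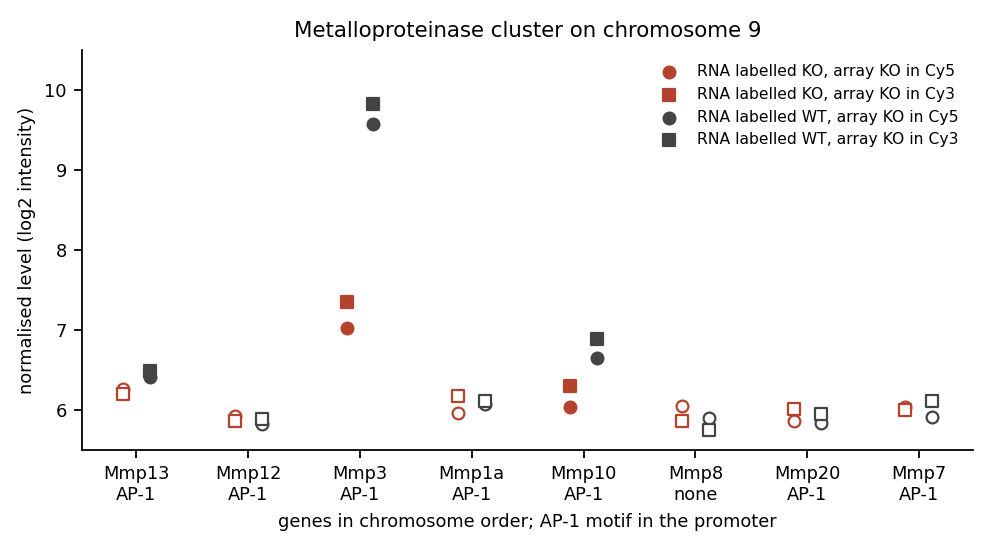
Normalised log2 intensity (y axis) of the 8 metalloproteinase genes of the chromosome 9 cluster in chromosome order (x axis, with the presence of an AP-1 motif in the promoter below each name). Red is the RNA labelled KO and grey the RNA labelled WT, circles and squares are the arrays with KO in Cy5 and in Cy3, and open symbols mark an RNA in which the probe was not above background on both arrays. Levels can be compared within a gene only. Mmp3 stands out with levels of 9.57 and 9.82 in WT against 7.02 and 7.35 in KO.

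Of the gelatinases, Mmp2 was called higher. Its levels were 11.38 in KO and 9.76 in WT with KO in Cy5, and 11.63 and 9.67 with KO in Cy3. The ratios of 1.62 and 1.96 gave a mean of 1.79 ± 0.25, or 3.46-fold. The arrays differed more for Mmp2 than for any other called gene, and both ratios were past 2-fold. The single Mmp2 probe lies on chromosome 8 at 95742069 to 95742128. The other gelatinase, Mmp9, was not above background in either RNA at either of its probes.

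The membrane-type metalloproteinases differed little. Mmp14, which activates the Mmp2 precursor at the cell surface, had ratios of -0.43 and -0.08 at its usable probe, with a mean of -0.25 ± 0.24. Its brighter probe carried a non-uniformity flag on both arrays and was left out. Kept, it gave 0.27 and 0.46, so Mmp14 has no settled direction. Mmp15 was at -0.26 ± 0.16, Mmp17 at -0.22 ± 0.06, Mmp16 at 0.09 ± 0.03 and Mmp24 at 0.17 ± 0.01. Mmp24 was above background in the RNA labelled KO alone, and Mmp25 in neither RNA. Among the other metalloproteinases Mmp23 (0.22), Mmp19 (0.07) and Mmp28 (-0.11) stayed within 0.25 of 0, and Mmp20 and Mmp21 were not above background. Over all 21 Mmp genes, 13 were above background, 1 was called in each direction, and the median was -0.14.

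The ADAMTS proteases gave more calls than the Mmp genes. Of 18 genes 12 were above background, 4 were called higher and 1 lower, and the median was 0.38. Among the hyalectanases, which cleave aggrecan and versican, 5 of 7 were measurable of which 2 were called higher and 1 lower. Adamts1 had levels of 15.00 in KO and 12.52 in WT with KO in Cy5, and 15.17 and 12.58 with KO in Cy3. Its ratio was 2.54 ± 0.07 (2.49 and 2.59), or 5.81-fold. Adamts5, an aggrecanase, had 13.42 against 10.94 and 13.49 against 11.06, and a ratio of 2.46 ± 0.04 (2.48 and 2.43), or 5.49-fold. In both genes the KO levels lay above the WT levels on each array by more than 2.4. A second probe gave 2.31 for Adamts1 and 2.17 for Adamts5, so both genes were called at each of their probes.

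Adamts1 and Adamts5 are neighbours. Their probes lie 67.6 kb apart on chromosome 16 (mm8), at 85683995 to 85684054 and at 85751628 to 85751687, and no protein-coding gene starts between them in the reference table. The Adamts1 promoter is shown because, of Adamts1 and Adamts2, the called-higher genes with a promoter in the table, it alone holds a TATA box motif, in capitals, which begins 32 bases before the start. No AP-1 motif lies in its window. No promoter was found for Adamts5.
Adamts1, chr16:85803114-85803213, minus strand, GRCm38.p6: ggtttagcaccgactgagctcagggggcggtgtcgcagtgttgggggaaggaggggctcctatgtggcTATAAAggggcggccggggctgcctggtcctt

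Of the other measurable hyalectanases, Adamts8 was called lower. It had levels of 7.66 and 7.98 in WT, whereas in KO, at 5.99 and 6.37, it was not above background on either array. Its fitted ratio of -1.64 ± 0.05 depends on the offset. A further value set the KO level to the lowest signal among probes above background, or to the probe's own where that was higher. That value, 3.12-fold lower, rests on the same offset and is not a limit under other processing. It does not take in the spread between arrays. The Adamts8 ratio was -1.33 without background subtraction and -1.26 as the mean over all probes. An adjoining second Adamts8 probe gave -0.89 and was also not above background in KO. Adamts4, the other classical aggrecanase, had 8.74 against 9.66 and 8.51 against 9.66. Its ratios of -0.91 and -1.15 fell on both sides of 2-fold, so it was not called. Adamts9 was at -0.37 ± 0.05 at its brightest probe, while its 2 other probes gave 0.079 and -0.029 and the mean over all probes was -0.11, so it has no settled direction. Adamts15, the neighbour of Adamts8 on chromosome 9, and Adamts20 were not above background.

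**Figure D3:**
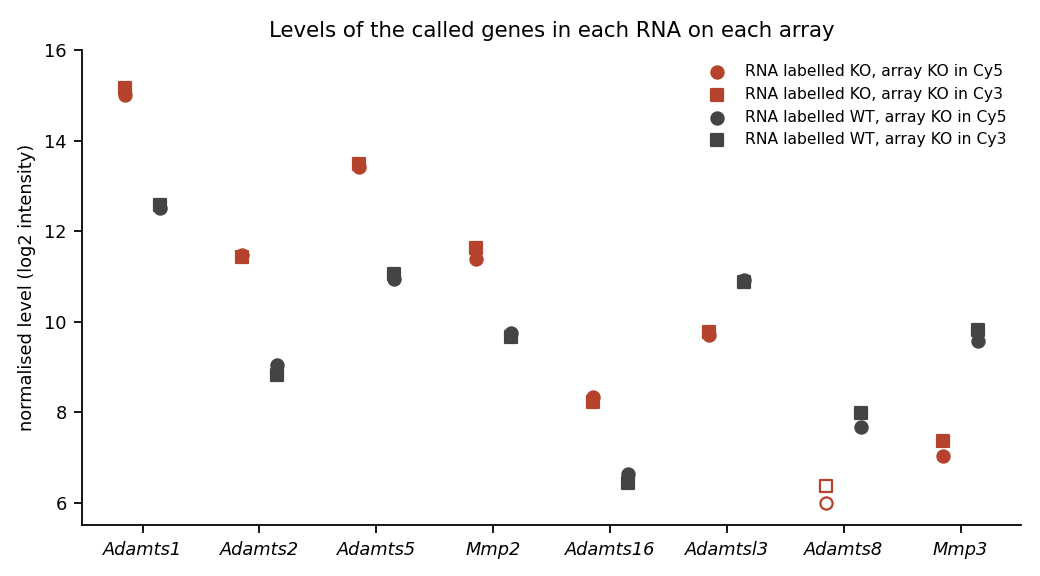
Normalised log2 intensity (y axis) of the 8 called genes (x axis, by ratio) in each RNA on each array. Red is the RNA labelled KO, grey the RNA labelled WT, circles the array with KO in Cy5, squares the array with KO in Cy3, and open symbols mark levels not above background. The levels of the RNAs differ by at least 2-fold on each array because the call requires it. The Adamts8 levels of 5.99 and 6.37 in KO are at background.

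Adamts2 removes the amino-terminal propeptide of fibrillar procollagens. It had levels of 11.46 in KO and 9.04 in WT on the first array and of 11.42 and 8.83 on the second, with a ratio of 2.51 ± 0.12 (2.43 and 2.59), or 5.69-fold. Of the related enzymes, Adamts14 had a ratio of 0.17 ± 0.13, and Adamts3 was not above background. The enzymes that act on cartilage oligomeric matrix protein, Adamts7 and Adamts12, were at 0.03 ± 0.17 and 0.59 ± 0.20. A second Adamts12 probe gave 0.39. Adamts16 had 8.33 against 6.64 and 8.21 against 6.44, and a ratio of 1.73 ± 0.06 (1.69 and 1.78), or 3.33-fold. Adamts10, which acts on fibrillin microfibrils, had ratios of 0.70 and 1.26. It passed 2-fold on 1 array only and was not called. Its relative Adamts6 was lower, with ratios of -0.67 and -0.85. Adamts13, the protease of von Willebrand factor, Adamts18 and Adamts19 were not above background.

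Among the ADAMTS-like genes 4 of 5 were above background. Adamtsl3 was called lower. Its levels were 9.70 in KO against 10.93 in WT, and 9.77 against 10.87, which gave a ratio of -1.16 ± 0.09 (-1.22 and -1.09), or 44.8% of the WT level. A second probe gave -0.80. Adamtsl4, a microfibril-binding protein, had 0.72 and 0.70, Adamtsl1 0.20 and -0.09, and Adamtsl2 was not above background. Adamtsl5 had probes in disagreement, described with the other genes below.

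The measured inhibitors had ratios close to 0. Timp1, a secreted inhibitor, had levels of 15.02 in both RNAs on the first array and of 15.12 in KO and 15.09 in WT on the second. Its ratio was 0.014 ± 0.02, and its second probe gave -0.030. Timp3, which is bound to the matrix and inhibits aggrecanases, was at -0.26 ± 0.09 (-0.32 and -0.20). Timp4 was not above background on both arrays in either RNA. The only Timp2 probe carried a non-uniformity flag on both arrays and has no value. Kept, it gave 1.22 and 0.63, which differ by more than most genes do between arrays.

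Probes of the same gene were compared next. Several probes above background represented 14 genes. In 2 of these the highest and lowest probe differed by over 1 on the log2 scale, and opposite calls occurred in none. In Adamts2, on the plus strand of chromosome 11, the brightest probe (50647393 to 50647452) gave 2.51 and the most downstream probe 1.43. The probes 9.36 and 30.6 kb before the last one gave 0.41 and 0.30. Adamtsl5 ran from 0.61 at its most downstream probe through 0.23 at the brightest to -0.90 at the most upstream one, all within 2.45 kb. These disagreements exceeded the SD between arrays many times over. In Adamts16 the upstream probe, 39.7 kb away, was not above background in either RNA. The 3 Adamts10 probes gave 0.98, 0.68 and 0.40 with distance upstream, and both Adamtsl3 probes, 148 kb apart, were lower in KO.

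The labelling reaction was primed from oligo-dT, per the labels, that is from the 3′ end of the transcripts. The brightest probe was the most downstream in 15 of 24 genes of these families with several mapped probes (62.5%), and in 62.1% of all such genes. The part of probe position in the disagreements was not tested.

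**Figure D4:**
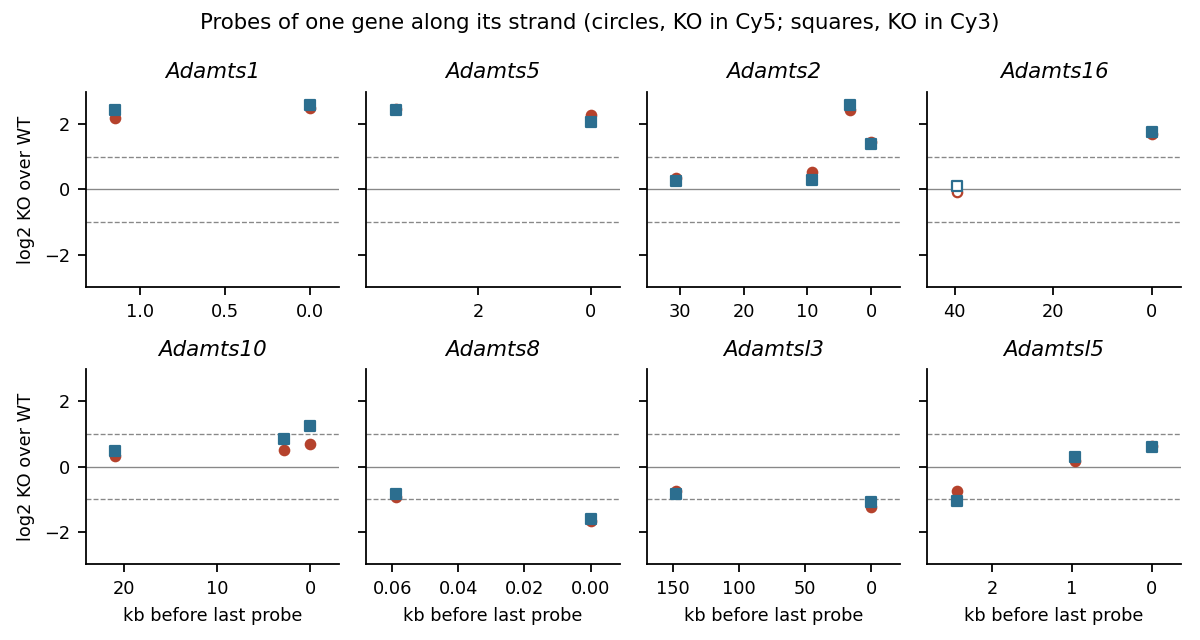
Log2 ratio of KO over WT (y axis) of every probe with a value for 8 genes, against its distance in kb before the most downstream probe (x axis, transcription running left to right). Circles are the array with KO in Cy5, squares the array with KO in Cy3, open symbols are not above background, and dashed lines mark 2-fold. Adamts1 and Adamts5 hold one level across probes, whereas Adamts2 runs from 0.30 to 2.51 and Adamtsl5 from -0.90 to 0.61.

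Genes that work with these enzymes were counted from lists. For comparison, 2.95% of all gene names above background were called higher and 2.61% lower. Of 18 other inhibitors and activators, 12 were above background, and the median was -0.15. Plat, the tissue plasminogen activator, was called lower at -1.88 (-1.84 and -1.92). Reck, a membrane-anchored inhibitor of metalloproteinases, had -0.97 and -1.40 and was not called. Of 12 ADAM proteases, the membrane-bound relatives of the ADAMTS family, 10 were above background and Adam23 was called higher (1.76), with a median of 0.09. Of 13 ADAMTS substrates 10 were above background and none was called in either direction, which is close to the shares over all gene names. The substrate median was -0.41, with Vcan (versican) at -0.59, Fbln1 (fibulin) at -0.59 and Col1a1 at -0.56, against 0.01 for Acan (aggrecan) and 0.00 for Col1a2.

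Among the subunits of AP-1 all 6 measured were above background, and 3 were called lower (50%, beside 2.61% of all gene names). Fos had ratios of -3.60 and -3.87, Fosb of -3.05 and -3.27, and Junb of -1.46 and -1.57. Jun, at -0.98 and -1.02, stood at the threshold. Fosl1 (0.71) and Fosl2 (0.68) were higher without being called. The median of the list was -1.26, the furthest from 0 of the 4 lists.

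Markers of fibroblasts and of other cells were measured beside these results. The shares over all gene names, 2.95% called higher and 2.61% lower, apply here too. The summed level of a list adds different probes and takes in its genes that are not above background. All 10 measured fibroblast markers were above background and none was called. Their median ratio was -0.33, with 7 of 10 below 0, and their summed level was 119256 to 122360 units in KO against 133186 to 155402 in WT. Of the macrophage markers 5 of 10 were above background, with Lyzs called higher (1.1) and Cd14 called lower (-1.05), while Ptprc, Emr1, Itgam, Aif1 and Tyrobp were not above background on both arrays. The summed level of the macrophage list was 2087 to 2120 units in KO and 1592 in WT. Most of the KO sum was Lyzs, with log2 levels of 10.33 and 10.32 in KO against 9.23 and 9.22 in WT. Cd14 went the other way, with 7.33 and 7.56 against 8.42 and 8.57. Of the adipocyte markers 3 of 6 were above background. Pparg was called higher (2.83), Fabp4 was at 0.96 and Cebpa at -0.70 (-0.71 and -0.68), and Adipoq, Plin and Cfd were not above background. The sum was 2635 to 2864 in KO against 745 to 766 in WT, and most of it in KO was Pparg, with log2 levels of 11.25 and 11.11. Krt19 (2.12) was the only epithelial marker called, with 3 of 7 above background and Cdh1, Tacstd1, Krt8 and Krt18 not. That sum was 767 to 816 against 529 to 538. Of the endothelial markers Flt1 alone (0.93 and 1.33) was above background, and Pecam1, Cdh5, Kdr, Tek and Emcn were not. The sums of this list, mostly Flt1, were 7888 to 9173 in KO and 3858 to 4282 in WT. No marker of neutrophils (2 of 7 above background), chondrocytes (5 of 7), osteoblasts (2 of 6) or skeletal muscle (2 of 6) was called. The part of other cell types in the protease ratios was not tested.

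The ratios of some bright genes depended little on processing, and those of several dim genes depended on it strongly. Over 9 other ways of computing the ratio, Adamts1 ran from 2.43 to 2.64, Adamts5 from 2.31 to 2.53 and Mmp2 from 1.62 to 1.96. Other bright genes moved more, with Adamts2 from 1.16 to 2.69 and Mmp14 from -0.43 to 0.36. Mmp3 ran from -3.28 to -2.28, Adamts16 from 0.87 to 3.27 and Adamts8 from -4.28 to -1.26. Mmp10 reached -1.89 and Mmp13 -1.90 with the scanning software's own ratio, which adds no offset of 50. Under it both were called lower, and Mmp24 and Adamtsl4, at 1.30 each, were called higher. Adamts2 fell to 1.16 and Adamts16 to 0.87 when all probes of a gene were averaged, and Adamts16 was then not called.

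**Figure D5:**
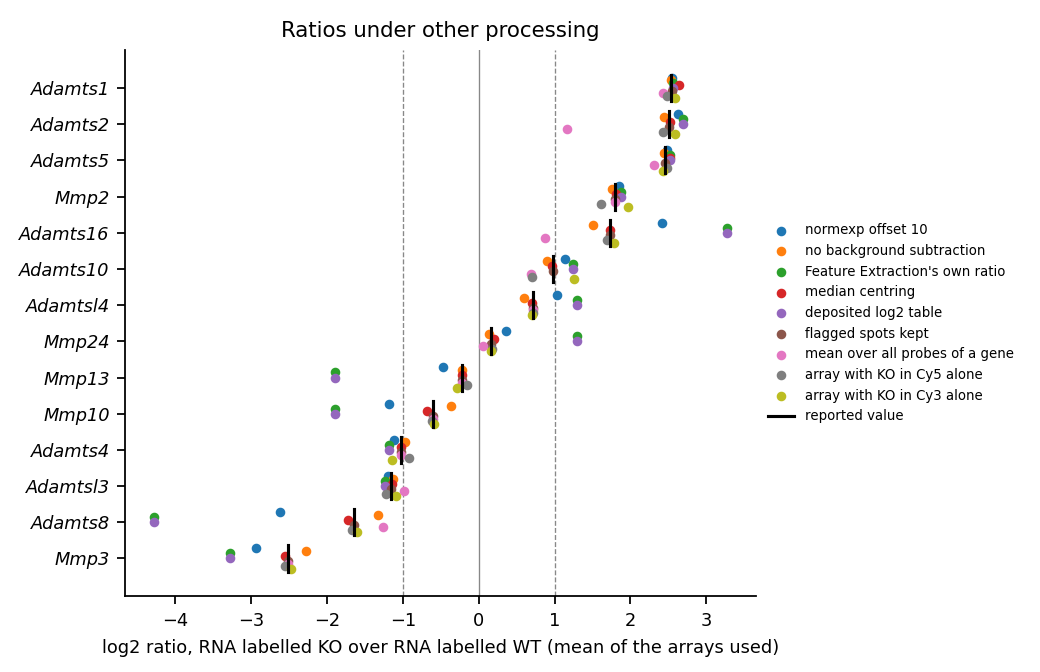
Log2 ratio of KO over WT (x axis) of the 8 called genes and of 6 others that were called at 2-fold under a setting in the key (y axis). The black bar is the reported value, coloured points are the other settings named in the key, and dashed lines mark 2-fold. Points of Adamts1, Adamts5 and Mmp2 lie close to the bar, whereas Adamts8 runs from -4.28 to -1.26 and Mmp13 reaches -1.90.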

How the data were processed

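Per the file headers, 2 Agilent arrays were scanned and read with Feature Extraction 10.5.1.1, and the authors deposited mean and background intensity of each spot with a processed log10 ratio of Cy5 over Cy3. The authors also deposited a log2 table per probe. It matched the processed ratio turned to KO over WT, with r of 0.9999 and 0.9996 and column medians of -0.018 and 0.037. Probe positions are on NCBI36 (mm8), per the file headers.

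In R 4.3.3, limma 3.58.1 corrected the intensities by normexp with an offset of 50, and they were normalised by loess within each array. Control spots (1639 of 45018 on each array) and spots flagged as outliers (390 and 378) were left out. Median signals per array were 96.8 and 98.5 units in Cy5 and 60.1 and 58.2 in Cy3, and no spot was saturated. Spots of a probe were averaged, the array with KO in Cy3 was turned, and the brightest probe stood for its gene. A gene was called where each array gave a log2 ratio of 1 or more in size with the same sign and where the probe was well above background on both arrays in the RNA it was higher in. A flag had to be set in a share of 0.5 of the spots. Levels are channel values after loess and Aquantile. The steps were run on a simulated dye swap in which 200 probes were changed, and 180 of them were called. All changed probes were above background in both RNAs and changed by more than 2-fold. Dim genes and ratios near the threshold were therefore not tested. All 48 symbols are in the RefSeq table (GRCm38.p6), which was used for names and neighbours. Every called gene is named, every other gene above background is given with its value, and genes below background by name only.

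The gene families, lists and motifs were chosen with earlier results of these data known. A result for the list of other inhibitors and activators is not reported here. The alternatives were an offset of 10, no background subtraction, Feature Extraction's own ratio, the deposited log2 table, median centring, keeping flagged spots, the mean over all probes, each array alone, other filters and thresholds, the methods' t-test on the 2 arrays and limma's test. Counts and plots were made in Python 3.11.15 using pandas 2.3.3 and scipy 1.17.1.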

Additional observations from a re-analysis of the deposited data

How the results depend on the processing

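No paired analysis was possible because the 2 arrays form 1 dye swap. Counts of genes called higher stayed within 1.5 times the reported 5, from 4 to 7, under every alternative except the methods' t-test after Benjamini-Hochberg. Counts called lower were 5 with an offset of 10 and 6 under Feature Extraction's own ratio, the deposited log2 table and a threshold of 1.5-fold, against the reported 3. Adamts4 and Mmp10 were among them under each of these, Mmp13 under both tables from Feature Extraction, and Adamts6 at 1.5-fold. By construction, an offset of 10 shrinks dim ratios less. The cause was not tested for the other settings. The methods' t-test (2-fold and p under 0.05) gave 4 higher and 3 lower, and 0 and 0 after Benjamini-Hochberg. limma, with a mean of at least 2-fold and an adjusted p under 0.05, gave 5 and 4. Without the 2-fold threshold more genes passed limma's test, among them Adamts10 and Adamtsl4 (higher) and Adamts6 and Mmp10 (lower). These tests on 2 arrays compare the RNAs hybridised. On single arrays the counts were 5 to 6 higher and 3 to 4 lower, and the median of the genes above background ran from -0.035 to 0.081. A call needs 2-fold on each array, so every called gene is called again on a single array. These single-array counts could therefore not fall. Under all alternatives the median of the genes above background shifted by less than 0.136, the spread between arrays of single probes. A median of 31 genes varies less than a single probe, so this limit is loose. The median is close to 0 and changed sign, to -0.035 on the array with KO in Cy3 alone and to -0.0079 with the mean over all probes. Of 423 recomputed values of single genes, 93 moved by more than that spread, 72 to a larger and 21 to a smaller size. Feature Extraction's own ratio and the deposited log2 table hold nearly the same values, so most moves under them are counted under both. For single arrays the call itself ensures it, and under no setting did any of the 8 called genes change sign. Of the others 36 values did, 6 of them in genes above background, and the largest of them in size was Mmp14, at -0.25, which was 0.36 with flagged spots kept. Adamtsl3 was not called with median centring, or with the mean over all probes (-0.98). The median over all probes stayed within 0.1 of 0 under each scaling. Dim signal limits 16 of the 47 genes, for which no difference could be measured.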
